A study of Mus musculus with 2 samples.

Results

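Glycolysis and hypoxia response genes were examined in mouse mammary basal cells that carried a short hairpin RNA against Cdk14 (Cdk14-sh), set against the same kind of cells with a scrambled hairpin (Scramble control). The set holds 33 genes chosen by symbol for their role, and all 33 were among the 15239 genes of the deposited table. They cover the glycolytic enzymes step by step, glucose and lactate transport, and the kinases that switch off pyruvate dehydrogenase. The set also has the oxygen-regulated subunit Hif1a, the prolyl hydroxylases Egln1 and Egln3, and targets of the hypoxia response. Both groups are labelled as normal mammary gland, and each consists of 1 library of messenger RNA. The sources used here do not give strain, age, the way the hairpins were delivered or whether animals were pooled. The submitted descriptions differ on the material, since other fields name a human breast cancer line and retinas; the gene identifiers are mouse. A single library a group leaves every difference without a replicate check, and hence without a p-value. Values are FPKM, fragments scaled to gene length and library size. Ranges in parentheses cover counting error at the 95% level and compare these 2 libraries, not the conditions.

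Glycolysis splits glucose into pyruvate, which lactate dehydrogenase reduces to lactate and which pyruvate dehydrogenase otherwise passes to the mitochondrion. When oxygen is low, the prolyl hydroxylases of the Egln family no longer mark the HIF alpha subunit for destruction. HIF then binds short DNA elements and raises transcription of glucose transporters, many glycolytic enzymes, Vegfa and the mitophagy receptors Bnip3 and Bnip3l. In the mammary gland, basal cells form the outer, contractile layer of the epithelium, and glucose is also the precursor of milk lactose in the luminal layer.

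Promoters are shown for 5 members that differed at least 2-fold and, beside them, for Ldha, the most abundant member in both libraries, which did not. Each sequence runs 5′ to 3′ towards a RefSeq start site (GRCm38.p6), within the 250 bases before it. It is cut where a GENCODE M21 exon begins. Ldha has a second window (chr7:46846832-46847081, not shown) with 1 match and no ACGTG. Capitals mark the letters ACGTG or GCGTG on either strand, the core of the HIF element; in CACGTG both strands match and the letters overlap.
P4ha2 (chr11:54100674-54100923, plus strand): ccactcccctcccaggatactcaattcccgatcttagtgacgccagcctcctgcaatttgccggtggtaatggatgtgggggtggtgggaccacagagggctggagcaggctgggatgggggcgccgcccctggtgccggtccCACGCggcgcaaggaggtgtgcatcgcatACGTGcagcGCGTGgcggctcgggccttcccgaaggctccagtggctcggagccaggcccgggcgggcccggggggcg
Egln3 (chr12:54203875-54204124, minus strand): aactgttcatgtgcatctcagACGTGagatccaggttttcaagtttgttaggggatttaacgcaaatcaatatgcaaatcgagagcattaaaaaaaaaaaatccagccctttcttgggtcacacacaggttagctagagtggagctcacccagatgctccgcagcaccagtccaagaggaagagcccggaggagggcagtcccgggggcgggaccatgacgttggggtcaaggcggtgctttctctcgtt
Hk2 (chr6:82774455-82774704, minus strand): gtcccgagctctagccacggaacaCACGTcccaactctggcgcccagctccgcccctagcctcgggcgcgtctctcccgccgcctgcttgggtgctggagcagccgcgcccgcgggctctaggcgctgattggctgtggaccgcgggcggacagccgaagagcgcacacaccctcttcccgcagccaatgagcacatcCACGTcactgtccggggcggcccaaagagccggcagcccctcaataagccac
Bnip3 (chr7:138909520-138909756, minus strand): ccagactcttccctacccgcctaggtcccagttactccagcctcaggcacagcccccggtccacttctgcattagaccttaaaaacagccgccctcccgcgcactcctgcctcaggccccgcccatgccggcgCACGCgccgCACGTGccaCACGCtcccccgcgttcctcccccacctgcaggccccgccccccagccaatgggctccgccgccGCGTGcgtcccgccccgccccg
Slc16a3 (chr11:120948817-120949052, plus strand): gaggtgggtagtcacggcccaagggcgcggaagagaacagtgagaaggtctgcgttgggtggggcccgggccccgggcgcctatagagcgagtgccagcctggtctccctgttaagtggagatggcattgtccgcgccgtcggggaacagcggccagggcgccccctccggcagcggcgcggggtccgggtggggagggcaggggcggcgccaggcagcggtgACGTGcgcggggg
Ldha (chr7:46845554-46845803, plus strand): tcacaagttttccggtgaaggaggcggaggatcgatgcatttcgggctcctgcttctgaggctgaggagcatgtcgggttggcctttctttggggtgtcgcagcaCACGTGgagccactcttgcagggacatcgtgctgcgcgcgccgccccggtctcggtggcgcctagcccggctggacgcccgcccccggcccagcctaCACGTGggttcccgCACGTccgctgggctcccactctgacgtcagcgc
RefSeq windows were matched for 31 of the 33 members, and 28 of them (90.3%) held at least 1 such match in the 250 bases before a start site. Of the 29 measured members among them, 26 (89.7%) did. The share was 63.4% among 8118 genes averaging 1 FPKM or more that had a window, and 41.5% among all 27025 genes with one. A gene can have several windows. Counted by window, 81.0% of 42 windows of the measured members held a match, against 56.8% of 10447 windows of those measured genes. For ACGTG alone the shares were 64.5% of members, 25.8% of those measured genes and 18.5% of all genes. Of the members described next, all 4 past the 2-fold limit upwards in Cdk14-sh and all 5 past it downwards held a match, as did 17 of 20 measured members in neither class. For ACGTG alone these counts were 3 of 4, 3 of 5 and 13 of 20. Gapdh, Pfkp and Aldoc, past the limit but not shown above, held no ACGTG. A match describes these letters only and does not show binding.

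With the commonest low value taken as 2 reads, the libraries corresponded to 10177185 reads in Cdk14-sh and 10186924 reads in Scramble control. The hairpin's target Cdk14 was at 0.713 FPKM in Cdk14-sh against 2.06 FPKM in Scramble control, 34.5% of the control level (25.9999 to 45.9). All 8 basal markers were listed and summed to 2186 FPKM in Cdk14-sh against 2983 FPKM in Scramble control, but they went both ways. Trp63, the basal lineage factor, was 2.83-fold higher in Cdk14-sh and the keratin Krt5 1.87-fold higher, while the contractile genes Cnn1, Myh11 and Acta2 were 3.37-fold, 2.24-fold and 1.57-fold lower and the keratin Krt14 was 1.21-fold lower. Markers of other cells of the gland differed between the libraries. The 8 of 9 endothelial markers that were listed were all lower in Cdk14-sh, 7 of them at least 2-fold, and summed to 49.7 FPKM against 217 FPKM in Scramble control. The 3 of 6 listed pericyte markers summed to 57.2 FPKM against 127 FPKM, and Fabp4, the 1 of 5 adipocyte markers that was listed, was at 8.45 FPKM against 94.3 FPKM. Of 8 leukocyte markers, 5 were listed, and 4 of these (Cd74, H2-Aa, H2-Ab1 and Csf1r) were 2-fold or more higher in Cdk14-sh, the list summing to 354 FPKM against 79.6 FPKM. The pan-leukocyte gene Ptprc was low in both, at 0.247 FPKM in Cdk14-sh against 0.482 FPKM in Scramble control. The 7 of 9 listed luminal markers summed to 648 FPKM in Cdk14-sh against 1209 FPKM in Scramble control and also went both ways. Krt8, Krt18 and Epcam were lower in Cdk14-sh, whereas Krt19 was 2.09-fold higher, as were Kit (2.27-fold), Esr1 (18.02-fold) and Prlr (11.5-fold), the last 3 averaging under 1 FPKM. The 4 of 6 listed fibroblast markers summed to 68.0 FPKM in Cdk14-sh against 113 FPKM in Scramble control, though 3 of the 4 were higher. Fbln1, Col1a2 and Col1a1 were 6.86-fold, 2.71-fold and 1.99-fold higher, while Dcn, the most abundant, was 2.53-fold lower. Of 6 retina markers 2 were listed, summing to 1.78 FPKM in Cdk14-sh against 3.47 FPKM in Scramble control, and none of 6 erythroid markers was listed. Every marker that was listed had a value above 0 in both libraries, as did every gene of the deposited table. The presence of a cell type therefore cannot be read from it. The part of these markers in the differences below was not tested, and in bulk RNA fewer cells of a type and less RNA per cell cannot be told apart.

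Taken over all members, the set was balanced around no difference, and single genes moved in both directions. Measured here means averaging 1 FPKM or more over both libraries. Of the 31 measured members, 4 exceeded a 2-fold limit upwards in Cdk14-sh (Hk2, Gapdh, Egln3 and P4ha2) and 5 exceeded it downwards (Pfkm, Pfkp, Aldoc, Slc16a3 and Bnip3). The limit was applied to log2 of FPKM plus 1, which understates the difference of low genes. These 9 are 29.0% of the measured members, against a background of 27.8% of 12830 measured genes in either direction (14.2% higher and 13.5% lower), so the share itself is near the background. The median log2 ratio of the members was 0.05, against 0.02 over all measured genes. Of the 25 members averaging 5 FPKM or more, 2 were past the limit upwards and 3 downwards, against 11.7% and 11.3% of 8062 genes at that level, 23% in either direction. Of the 17 averaging 20 FPKM or more, 2 (Pfkp and Aldoc) were past it, both downwards, against 8.46% of 3287 genes upwards and 7.7% downwards, 16.2% together. None of the 4 members averaging 100 FPKM or more was past it, against 5.43% of 681 genes upwards and 6.02% downwards, 11.5% together.

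**Figure D1:**
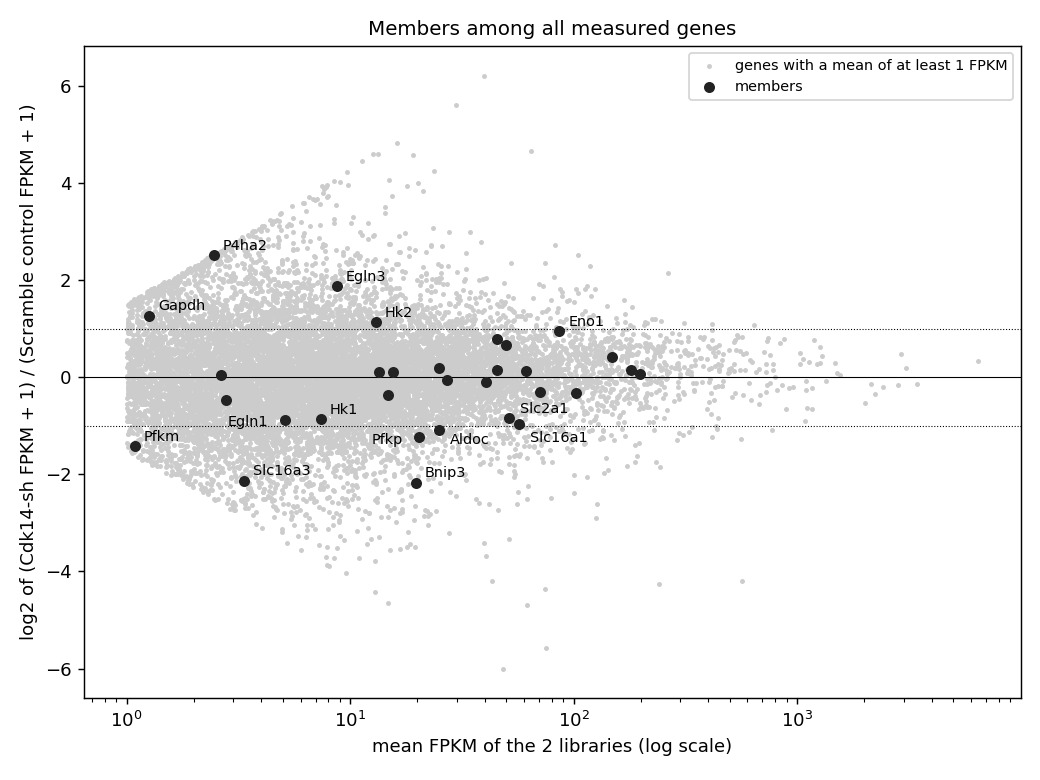
Each grey point is 1 of 12830 measured genes, by its mean FPKM over both libraries (log axis) and its log2 ratio of Cdk14-sh over Scramble control with 1 added to each value; black points are the 31 measured members and dotted lines the 2-fold limits. Members lie on both sides of 0, from Bnip3 at -2.17 to P4ha2 at 2.51, and the most abundant ones lie close to 0.

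The 3 most abundant members were enzymes of glycolysis from aldolase onwards, in the same order in both libraries. Ldha, which makes lactate from pyruvate, was the highest member in both libraries, at 202 FPKM in Cdk14-sh against 194 FPKM in Scramble control, a ratio of 1.04 (0.993 to 1.09). Aldoa, the main aldolase, came second at 189 FPKM in Cdk14-sh against 171 FPKM in Scramble control (ratio 1.10, 1.05 to 1.17). Pkm, pyruvate kinase, came next at 170.0 FPKM against 128 FPKM (ratio 1.33, 1.27 to 1.39). These 3 stood between percentiles 96.9 and 98.2 of all listed genes in either library, and only for Ldha did the range of the ratio include 1. Pfkm, the muscle-type phosphofructokinase, was the lowest member in Cdk14-sh at 0.133 FPKM, and P4ha2 the lowest in Scramble control at 0.0315 FPKM.

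**Figure D2:**
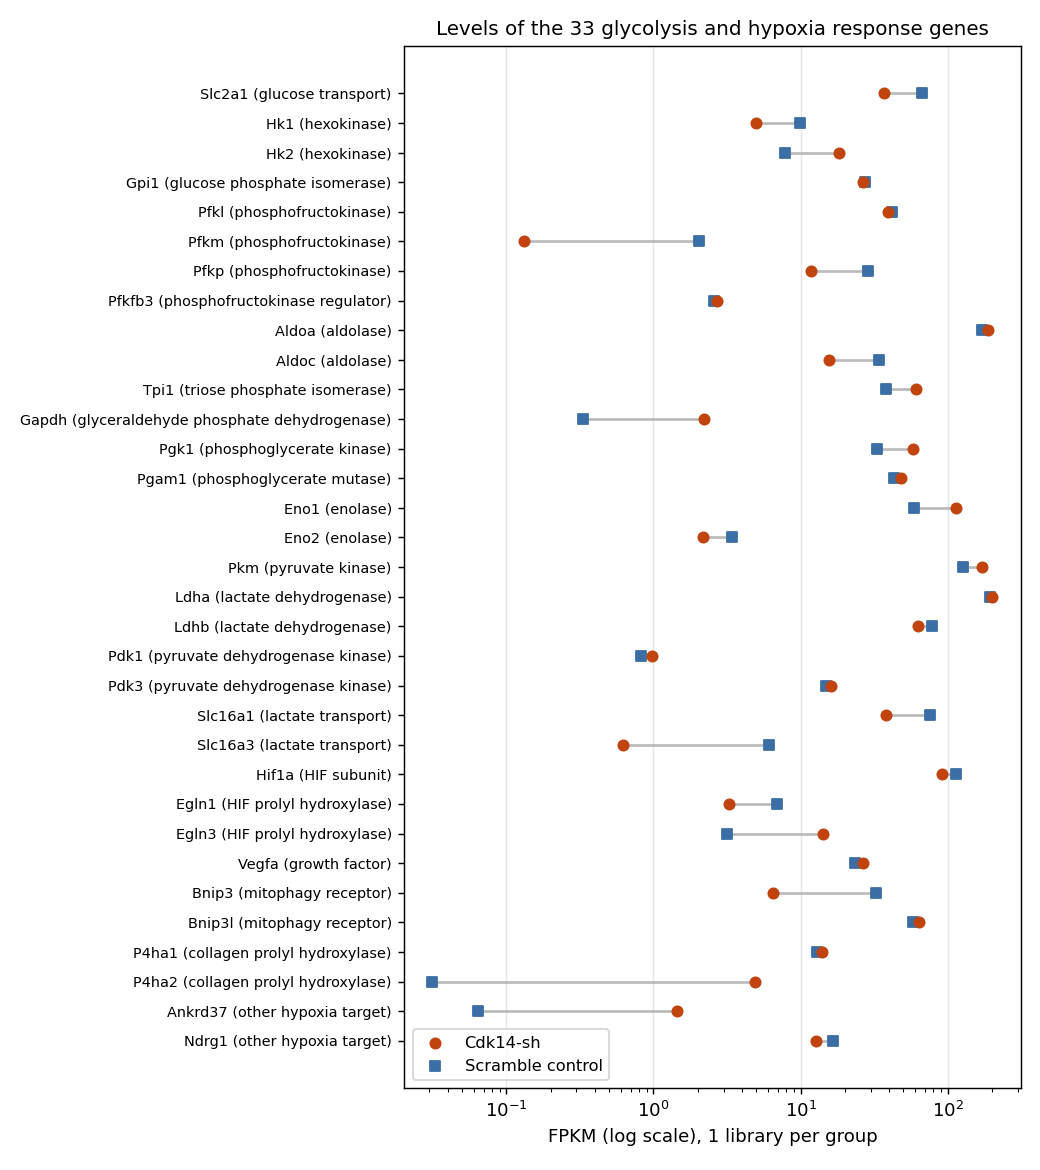
FPKM of the 33 genes on a log axis, with 1 circle for Cdk14-sh and 1 square for Scramble control, ordered by role from glucose transport to hypoxia targets. Most enzymes from aldolase to lactate dehydrogenase sit above 30 FPKM in both libraries, whereas Gapdh sits at 2.20 FPKM in Cdk14-sh and 0.333 FPKM in Scramble control.

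Entry of glucose differed in its isoenzymes. Slc2a1, the GLUT transporter of most epithelia, was at 36.7 FPKM in Cdk14-sh against 66.6 FPKM in Scramble control, 1.82-fold lower (1.65 to 1.9997). Hk2, the inducible hexokinase that traps glucose as its phosphate, was at 18.3 FPKM against 7.80 FPKM, 2.35-fold higher in Cdk14-sh (2.02 to 2.75) from 1113 and 475 reads. Hk1, the hexokinase expressed in most tissues, went the other way, at 4.95 FPKM in Cdk14-sh against 9.87 FPKM in Scramble control, 1.99-fold lower (1.69 to 2.36). Hk2 therefore made up 78.7% of the summed FPKM of both hexokinases in Cdk14-sh (76.0 to 81.3) against 44.1% in Scramble control (40.2 to 48.1). A share within a library does not depend on how the libraries were scaled. The summed hexokinase level was 23.3 FPKM in Cdk14-sh against 17.7 FPKM in Scramble control, a smaller difference than that of either gene. Gpi1, which converts glucose phosphate to fructose phosphate, was at 26.6 FPKM against 27.6 FPKM (ratio 0.965, 0.879 to 1.06).

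Phosphofructokinase, the committed step of the pathway, summed over its 3 genes to 51.2 FPKM in Cdk14-sh against 73.0 FPKM in Scramble control, and 2 of the genes were lower. Pfkl, the liver-type subunit and the most abundant, was at 39.3 FPKM in Cdk14-sh against 42.1 FPKM in Scramble control, within counting error (ratio 0.935, 0.867 to 1.01). The platelet-type subunit Pfkp was at 11.7 FPKM against 28.9 FPKM, 2.46-fold lower in Cdk14-sh (2.26 to 2.67). Its share of Pfkp and Pfkl together was 23.0% in Cdk14-sh (21.5 to 24.6) and 40.7% in Scramble control (39.1 to 42.4). Pfkm was at 0.133 FPKM in Cdk14-sh against 2.04 FPKM in Scramble control, about 5 and 69 reads, 15.4-fold lower (4.49 to 150.0). Gm26513, on the same strand, overlaps 10.2% of its exonic bases. Senp1, on the other strand with 0.539% of them, was lower too, at 0.579 FPKM against 4.39 FPKM. Pfkfb3, which makes the activator of phosphofructokinase and is a hypoxia target, was at 2.69 FPKM in Cdk14-sh against 2.57 FPKM in Scramble control (ratio 1.05, 0.791 to 1.40).

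The steps that follow were level or somewhat higher in Cdk14-sh for the main gene of each. Aldoc, the brain-type aldolase, was 2.19-fold lower (1.89 to 2.55), at 15.7 FPKM in Cdk14-sh against 34.4 FPKM in Scramble control. Because Aldoa was far more abundant, summed aldolase was 205 FPKM in Cdk14-sh against 206 FPKM in Scramble control. Tpi1, which interconverts the triose phosphates, was 1.60-fold higher (1.43 to 1.78), at 61.3 FPKM against 38.4 FPKM. Pgk1, the first ATP-forming enzyme of the pathway, was 1.74-fold higher (1.53 to 1.98), at 57.8 FPKM against 33.2 FPKM. Eno1, the ubiquitous enolase, was just under the 2-fold limit at 1.94-fold higher (1.82 to 2.06), with 114 FPKM in Cdk14-sh against 58.8 FPKM in Scramble control. Eno2, the neuronal enolase, was at 2.17 FPKM against 3.42 FPKM, 1.58-fold lower (1.10 to 2.27). Pgam1, phosphoglycerate mutase, was at 48.0 FPKM against 43.2 FPKM (ratio 1.11, 0.974 to 1.27). Across the 11 members from aldolase to lactate dehydrogenase, 8, Gapdh among them, had a log2 ratio above 0, against 51.4% of all measured genes. Their median of 0.15 lay between the medians of all genes averaging 20 FPKM or more (0.11) and 100 FPKM or more (0.19). Over all 17 glycolytic enzymes the median was 0.06, with 2 past the limit upwards and 3 downwards, 29.4% against 27.8% of all measured genes.

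**Figure D3:**
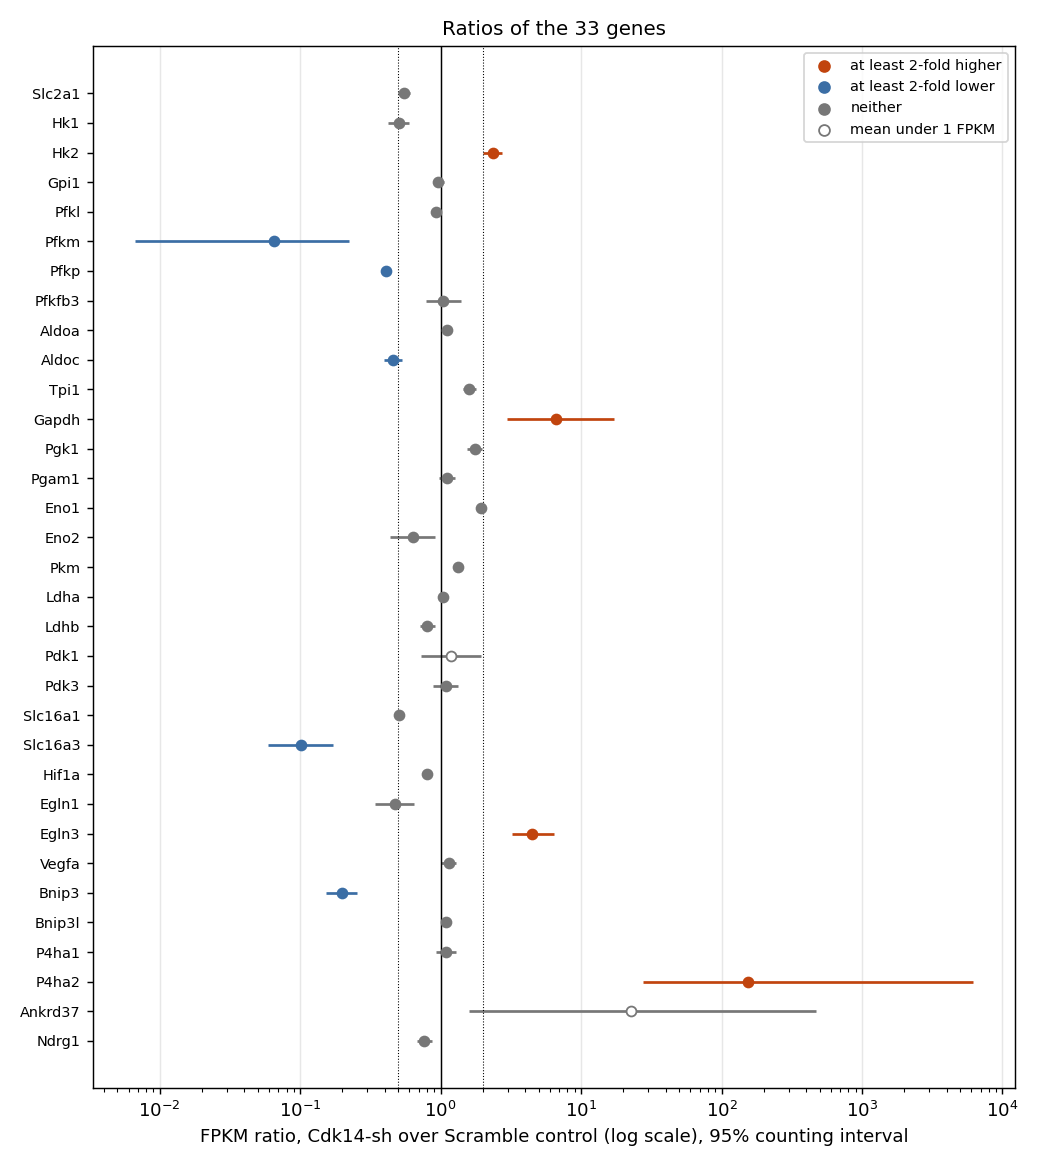
Ratio of FPKM in Cdk14-sh over Scramble control for each member on a log axis, with the 95% counting interval as a bar, 2-fold lines dotted and the members with a mean under 1 FPKM as open circles. P4ha2 and Ankrd37 have the widest intervals, upwards of 1, from 2 reads and 1 read in Scramble control, and Pfkm has a wide one below 1.

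Gapdh, which oxidises glyceraldehyde phosphate and is often used as a reference transcript, had a far lower value than the enzymes on either side of it. The table gave it 2.20 FPKM in Cdk14-sh against 0.333 FPKM in Scramble control, percentiles 31.1 and 11.02 of the listed genes, while Tpi1 and Pgk1 stood between percentiles 86.5 and 92.4. The gene lies on chromosome 6 (125161715 to 125166467, minus strand, GRCm38). GENCODE M21 holds 103 other genes at other loci with a transcript at least 95% identical to Gapdh over at least 300 bases, 99 of them pseudogenes. Of the 103, 13 were listed, and 8 of those stood above Gapdh itself in Cdk14-sh and 10 in Scramble control. The highest, the processed pseudogene Gm13394 on chromosome 2, was at 153 FPKM in Cdk14-sh against 115 FPKM in Scramble control and matched Gapdh at 99.9% of 1000 aligned bases. In recovered reads, Gapdh had 92 in Cdk14-sh and 14 in Scramble control, and its listed copies together had 2825 and 1985. The copies thus held 96.8% of the joint reads in Cdk14-sh and 99.3% in Scramble control. Ratios moved with that split: Gapdh alone was 6.60-fold higher in Cdk14-sh (2.95 to 17.3), and Gapdh with its copies was 1.46-fold higher (1.35 to 1.58), at 69.4 FPKM against 47.5 FPKM over the length of Gapdh. With the copies added, Gapdh no longer passed the 2-fold limit. No source used here says how reads matching several loci were treated, and the part of that treatment in these values was not tested.

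Near-identical copies bore on other members far less. In all, 11 members had such a copy in the annotation, and 27 copies were listed, 25 of them pseudogenes. Eno1 shared most: the processed pseudogene Gm4735 was at 131 FPKM in Cdk14-sh against 67.4 FPKM in Scramble control, and the coding gene Eno1b at 67.0 FPKM against 39.2 FPKM. Copies held 32.8% of the joint Eno1 reads in Cdk14-sh and 34.1% in Scramble control, and the ratio with them was 1.90 (1.81 to 1.999). For Pgk1, the copy Pgk1-rs7, with 157 reads in Cdk14-sh against 141 in Scramble control, brought the ratio to 1.64 (1.46 to 1.85). For Pgam1, adding Pgam1-ps2 and Pgam1-ps1 gave a ratio of 1.16 (1.02 to 1.31), whose interval no longer held 1. The copies of Tpi1, Pkm, Ldha, Ldhb, Gpi1, Bnip3 and Bnip3l held at most 4.76% of the joint reads in either library, though the range for Bnip3l with its copy (0.994 to 1.16) came to include 1.

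**Figure D4:**
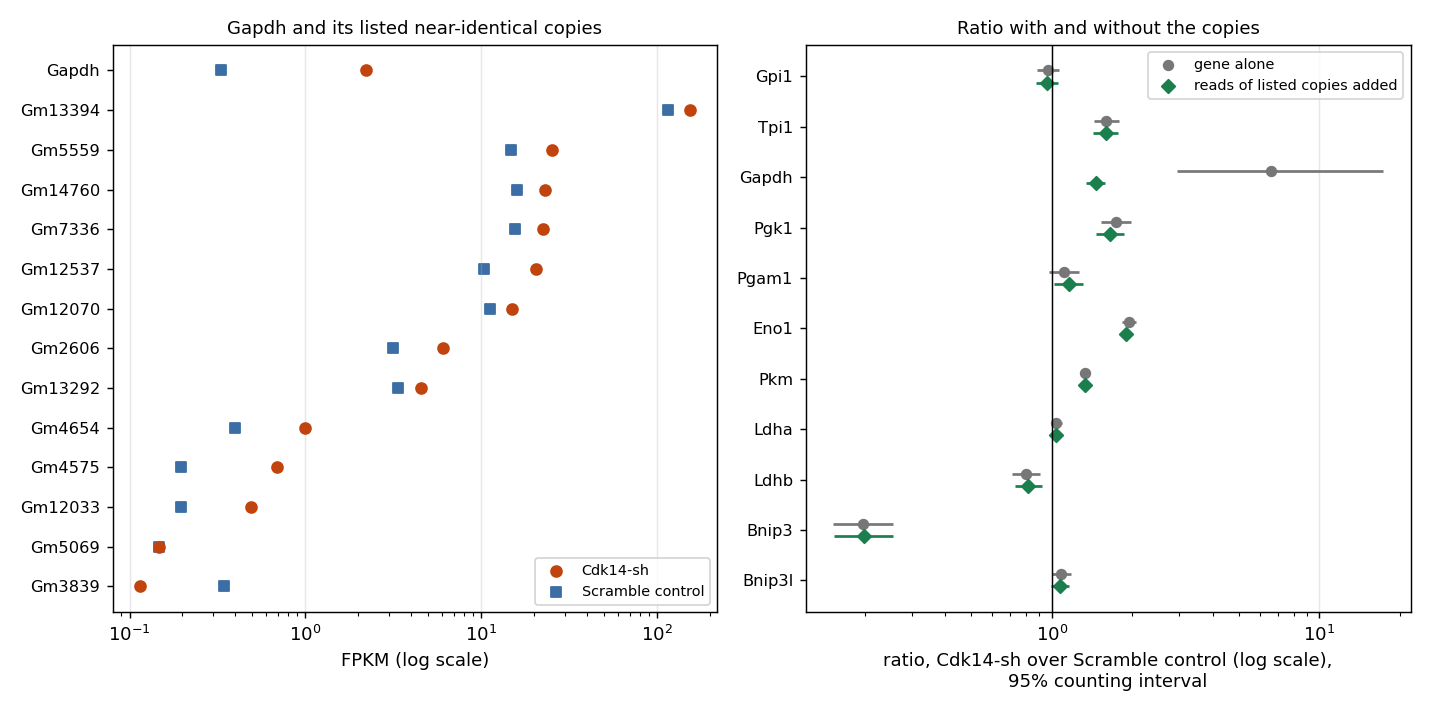
The left panel gives FPKM (log axis) of Gapdh and its 13 listed near-identical copies in Cdk14-sh (circles) and Scramble control (squares); 12 of the listed copies have a ratio between the libraries that is above or at equality, and only Gm3839 is clearly lower in Cdk14-sh. The right panel gives the ratio of Cdk14-sh over Scramble control with its 95% counting interval (log axis) for the 11 members with listed copies, for the gene alone and with the reads of the copies added; Gapdh moves from 6.60 to 1.46 and the others hardly move.

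At the fate of pyruvate, lactate dehydrogenase was level and the lactate carriers were lower. Ldhb, the subunit that favours lactate oxidation, was at 62.8 FPKM in Cdk14-sh against 78.2 FPKM in Scramble control, 1.24-fold lower (1.10 to 1.40). Its share of both subunits was 23.7% in Cdk14-sh (22.1 to 25.5) and 28.8% in Scramble control (27.0 to 30.5). Slc16a1 (MCT1), which carries lactate in either direction, was at 38.0 FPKM against 75.6 FPKM, 1.99-fold lower in Cdk14-sh (1.83 to 2.16) and just within the limit. Slc16a3 (MCT4), the hypoxia-induced lactate exporter on chromosome 11 (120948480 to 120960868, plus strand, GRCm38), was at 0.619 FPKM in Cdk14-sh against 6.09 FPKM in Scramble control. That is 9.84-fold lower (5.87 to 17.0), from 34 and 330 reads. Both carriers together summed to 38.6 FPKM in Cdk14-sh against 81.7 FPKM in Scramble control. Pdk1 and Pdk3 phosphorylate and thereby switch off pyruvate dehydrogenase. Pdk3 was at 16.1 FPKM in Cdk14-sh against 14.9 FPKM in Scramble control (ratio 1.08, 0.887 to 1.32). Pdk1, a classical HIF target, was low in both, at 0.973 FPKM against 0.827 FPKM, and with a mean under 1 FPKM was left out of the counts.

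Members of the hypoxia response differed in both directions. Hif1a was at 91.2 FPKM in Cdk14-sh against 114 FPKM in Scramble control, 1.25-fold lower (1.19 to 1.32). Of the prolyl hydroxylases that tag HIF, the members Egln3 and Egln1 changed places. Egln3 (PHD3), itself strongly induced by HIF, was at 14.3 FPKM against 3.17 FPKM, 4.50-fold higher in Cdk14-sh (3.23 to 6.44). Egln1 (PHD2), the main oxygen sensor, was at 3.28 FPKM in Cdk14-sh against 6.94 FPKM in Scramble control, 2.11-fold lower (1.54 to 2.92) as a ratio of FPKM and short of the limit with 1 added. Egln3 made up 81.3% of the summed FPKM of Egln3 and Egln1 in Cdk14-sh (76.5 to 85.6) against 31.4% in Scramble control (24.0 to 39.4). That share leaves out Egln2, of the same family but not a member. Egln2 was above both in either library, at 35.9 FPKM in Cdk14-sh against 19.6 FPKM in Scramble control, 1.83-fold higher (1.58 to 2.13). Vegfa, the endothelial growth factor, was nearly level, at 26.7 FPKM in Cdk14-sh against 23.4 FPKM in Scramble control (ratio 1.14, 1.01 to 1.29), while the endothelial markers given above were lower.

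Among mitophagy receptors, Bnip3 and Bnip3l parted. Bnip3 was at 6.49 FPKM in Cdk14-sh against 32.7 FPKM in Scramble control, 5.05-fold lower (3.92 to 6.54), from 150 and 756 reads. Bnip3l (Nix) was at 63.5 FPKM against 58.4 FPKM (ratio 1.09, interval from 1.00 to 1.18). Bnip3 lies on chromosome 7 (138890836 to 138909519, minus strand, GRCm38), and 22.3% of its exonic bases are shared with the antisense gene Gm45507. That gene was lower by a like factor, at 8.42 FPKM in Cdk14-sh against 41.9 FPKM in Scramble control. No source used here says whether strand was used in counting, so reads of the pair cannot be told apart.

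Collagen prolyl hydroxylases stabilise the collagen helix, and P4ha1 and P4ha2 are HIF targets. P4ha1 was level, at 14.1 FPKM in Cdk14-sh against 12.9 FPKM in Scramble control (ratio 1.09, 0.921 to 1.29). P4ha2, on chromosome 11 (54100095 to 54131665, plus strand, GRCm38), was at 4.88 FPKM in Cdk14-sh against 0.0315 FPKM in Scramble control, from 310 reads against 2. Its ratio of 155 has an interval from 27.4 to 6167, and its value in Scramble control stood at percentile 1.68 of the listed genes. Ankrd37, an ankyrin-repeat gene induced by HIF, was at 1.44 FPKM against 0.0638 FPKM, from 23 reads against 1 (ratio 22.5, 1.60 to 474), and had a mean under 1 FPKM. Of its exonic bases, 26.4% lie under Lrp2bp or Ufsp2 on the other strand. Ndrg1, a stress-responsive gene, was at 12.8 FPKM in Cdk14-sh against 16.7 FPKM in Scramble control, 1.30-fold lower (1.15 to 1.48). Counted as hypoxia targets outside the glycolytic enzymes were 12 members: Slc2a1, Slc16a3, Pdk1, Vegfa, Bnip3, Bnip3l, Egln1, Egln3, Ankrd37, Ndrg1, P4ha1 and P4ha2. Pfkfb3, called a hypoxia target above, was left out of this count. Of the 12 targets 10 were measured, 2 past the 2-fold limit upwards and 2 downwards, which is 40.0% against 27.8% of all measured genes. Their median log2 ratio was -0.12, with 5 above 0 and 5 below. The counting range excluded equal levels for 9 of the 10, and for 24 of all 31 measured members. The share over all genes is not given here, so this count does not set the hypoxia targets apart.

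**Figure D5:**
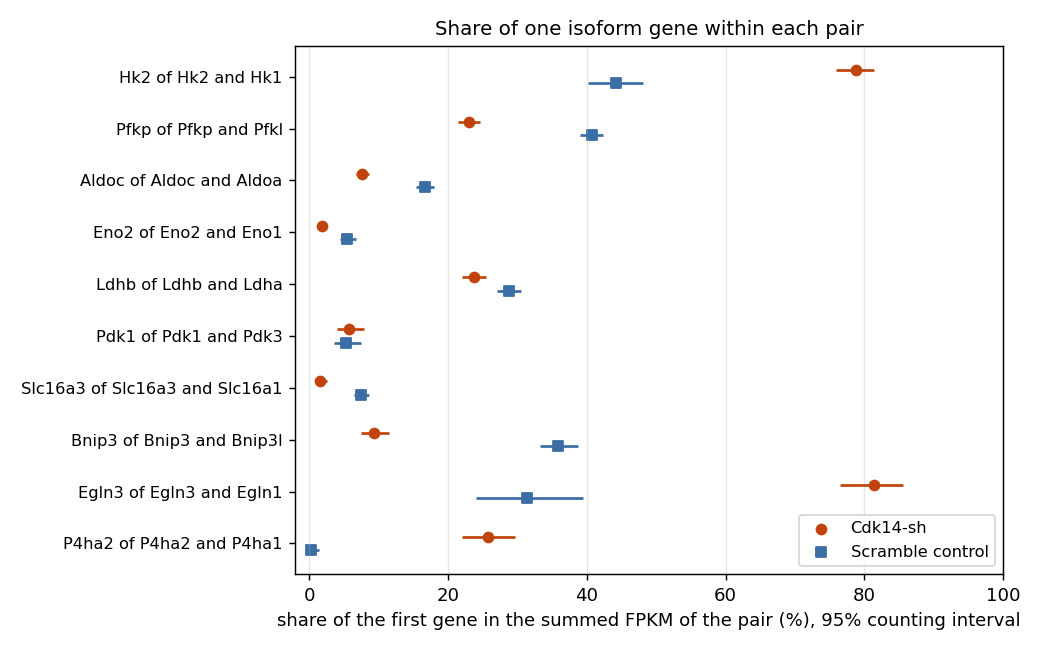
Share of the first gene in the summed FPKM of 10 pairs of related members, with 95% counting intervals, circles for Cdk14-sh and squares for Scramble control. The share of Hk2, Egln3 and P4ha2 is higher in Cdk14-sh, that of Pfkp, Aldoc, Eno2, Ldhb, Slc16a3 and Bnip3 is lower, and that of Pdk1 overlaps between the libraries.

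Other genes of these pathways, in 7 lists, had 78 measured genes, of which 20 passed the 2-fold limit upwards in Cdk14-sh and 7 downwards, together 34.6% against 27.8% of all measured genes (14.2% upwards and 13.5% downwards). The pentose phosphate pathway branches from glucose phosphate and supplies NADPH and ribose. Of its 6 measured genes, 5 (83.3%) passed it upwards, with a median log2 ratio of 1.20. Pgls was at 13.4 FPKM in Cdk14-sh against 3.80 FPKM in Scramble control (3.52-fold, 2.71 to 4.64), Pgd at 7.80 FPKM against 2.22 FPKM (3.51-fold, 2.70 to 4.62) and transketolase (Tkt) at 11.2 FPKM against 4.19 FPKM (2.68-fold, 2.22 to 3.24). The first enzyme, G6pdx, was the exception, at 3.32 FPKM in Cdk14-sh against 6.55 FPKM in Scramble control, 1.97-fold lower (1.40 to 2.82).

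Among other glucose and lactate transport genes, 2 of 6 passed it upwards and 1 downwards, 3 of 6 together, against the same 27.8%. Basigin (Bsg), the chaperone that brings lactate carriers to the membrane, was at 293 FPKM in Cdk14-sh against 134 FPKM in Scramble control, 2.19-fold higher (2.04 to 2.34). Its relative embigin (Emb), which also partners lactate carriers, was 2.22-fold higher (2.14 to 2.31), at 235 FPKM against 106 FPKM. Slc2a3, the high-affinity GLUT, was 10.4-fold lower, at 0.759 FPKM in Cdk14-sh against 7.87 FPKM in Scramble control. Of the markers given above, endothelial ones were lower and leukocyte ones higher except Ptprc, and their part in this was not tested. Of 12 pyruvate dehydrogenase and import genes, 1 passed the limit upwards and 2 downwards, 25% against 27.8% of all measured genes. Dlat was 2.32-fold higher (1.99 to 2.71), and the kinases Pdk4 and Pdk2 were lower. Pdk4, induced in fasting, was at 187 FPKM in Cdk14-sh against 428 FPKM in Scramble control, far above Pdk1 and Pdk3 in either. Among 7 measured isoenzymes and regulators, 2 passed the limit upwards and none downwards, 28.6% against 27.8% of all measured genes. They were Bpgm (7.34 FPKM in Cdk14-sh against 1.75 FPKM in Scramble control) and Minpp1 (10.1 FPKM against 4.12 FPKM).

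The HIF machinery had 2 of 14 measured genes past the limit upwards and none downwards (14.3%). Of all measured genes, 14.2% were past it upwards and 13.5% downwards, 27.8% together. Vhl, the ubiquitin ligase subunit that recognises hydroxylated HIF, was at 12.5 FPKM in Cdk14-sh against 3.73 FPKM in Scramble control, 3.34-fold higher (2.47 to 4.57). Cited2, a HIF target that competes with it for its coactivator, was 3.86-fold higher (3.01 to 5.04), at 23.9 FPKM against 6.19 FPKM. Arnt, the partner of HIF alpha subunits, was at 8.81 FPKM in Cdk14-sh against 14.6 FPKM in Scramble control (ratio 0.604, 0.528 to 0.690). Of 28 other hypoxia targets measured, 7 passed the limit upwards and 4 downwards, 39.3% against 27.8% of all measured genes. The log2 ratio was above 0 for 14 of them and below 0 for 14. The carbonic anhydrase Car12 (12.5 FPKM against 1.45 FPKM), the glycogen branching enzyme Gbe1 (8.79 FPKM against 1.54 FPKM) and the lysyl hydroxylase Plod1 (16.4 FPKM against 4.70 FPKM) had the highest log2 ratios with 1 added, an order that lowers genes of few reads such as Stc2 (1.97 FPKM in Cdk14-sh against 0.0759 FPKM in Scramble control). Rora (3.51 FPKM in Cdk14-sh against 15.7 FPKM in Scramble control), the lipid droplet gene Hilpda (63.0 FPKM against 162 FPKM) and Angptl4 (102 FPKM against 237 FPKM) had the lowest log2 ratios on that scale. Of 5 measured procollagen hydroxylases, 1 passed the limit, P3h3 upwards, which is 20% against 27.8% of all measured genes. P3h3 was at 5.95 FPKM in Cdk14-sh from 238 reads, against 2 reads in Scramble control. P4hb (156 FPKM against 140.3 FPKM) and Plod3 (9.37 FPKM against 9.99 FPKM) were near level.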

How the data were processed

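Messenger RNA of 1 Cdk14-sh and 1 Scramble control library was measured by sequencing. Sample labels were followed where fields conflict: these give basal cells of the mouse mammary gland, while a design note mentions MDA-MB-231 and a protocol mentions retinas. The authors deposited FPKM values, 1 column a library, with no gene at 0. Bowtie 0.12.2 and Subread 1.5.1 (featureCounts) are named in the submitters' processing notes, as are builds mm8 and GRCm38, whose roles are not stated.

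Each FPKM was turned back into reads using the exonic length of its gene in GENCODE M21. For 79.2% of 15195 genes with a length, and 26 of 33 members, the reads were multiples of 0.5 reads in both libraries (tolerance 0.01); those of Pfkl, Pfkm, Pfkp, Aldoa, Gapdh, Pgam1 and Ndrg1 are approximate. The commonest low value was taken as 2 reads, or 1 fragment. All read counts and library totals rest on this assumption, which the simulated data named below share. Ranges are 95% Clopper-Pearson intervals (exact) for how a gene's fragments divide between the libraries, expressed as ratios. Log2 ratios add a pseudocount of 1, and genes averaging under 1 FPKM were left out of counts. Near-identical copies were found with blastn 2.17.0+ among GENCODE M21 transcripts; this alternative was chosen after seeing the data. All 33 members are named, and of each other list up to 3 highest and 3 lowest genes; the other names were chosen after their values were seen. Members and lists were chosen with earlier results of these data known. The calculations were tested on simulated data, with Python 3.11.15 and scipy 1.17.1. Other scalings, pseudocounts, filters and limits are given in the closing section.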

Additional observations from a re-analysis of the deposited data

How the results depend on the processing

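No paired analysis was possible because each group holds 1 library. The counts of members at least 2-fold higher and lower, 4 and 5 as reported, depended on the treatment of low genes: with a pseudocount of 5 they were 1 (Egln3) and 2 (Pfkp and Bnip3), and with a mean of at least 5 FPKM they were 2 and 3. As TPM, 8 members were lower, adding Hk1, Slc16a1 and Egln1; TPM changes the scaling and also makes the pseudocount of 1 smaller against the values, and the parts of the 2 changes were not separated. TMM scaling gave 6 lower, adding Slc16a1, with 27.5% of all genes past the limit. A pseudocount of 0.1 also gave 6 lower, adding Egln1, with 34.8% of all genes past it. With the reads of near-identical copies added, 3 members were higher, without Gapdh. A 1.5-fold limit gave 7 and 9, and a 4-fold limit gave 1 (P4ha2) and 2 (Slc16a3 and Bnip3). The share of all genes past the limit, 27.8% as reported, moved too, to 10.05% with a pseudocount of 5, 23.0% with the filter at 5 FPKM, 32.8% as TPM, 49.7% at 1.5-fold and 5.95% at 4-fold. For the other pathway lists, 20 higher and 7 lower as reported, a pseudocount of 5 gave 9 higher, a 1.5-fold limit 17 lower and a 4-fold limit 2 higher and 1 lower. The median of the hypoxia targets, -0.12, was 0.11 without a filter on low values, which adds Pdk1 and Ankrd37, so this median has no stable sign. Median ratio, TMM and upper quartile scaling left all 33 log2 ratios within their counting intervals and turned no sign; TPM turned the signs of Pfkfb3 and Ldha, both close to 0. No scaling moved the median of all genes by over 0.1. Adding near-identical copies moved Gapdh alone outside its counting interval, to 0.54 on the log2 scale. Depth limits P4ha2, Ankrd37 and Pfkm most, since they rest on 5 reads or fewer in one library.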
